A study of Mus musculus with 2 samples.

Results

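The genes described here are 31 genes of glycolysis and of the response to low oxygen, measured in isolated mouse pancreatic islets 3 days after surgical removal of 60% of the pancreas. They comprise 17 glycolytic enzymes and 14 genes of the hypoxia response, chosen by name and found through the gene symbols of the authors' deposited table. Pyruvate kinase stands there under its older symbol, Pkm2. All 31 passed the filter on dim probes, out of 18641 genes with a symbol that did so. The filter asked for a signal well above background on 4 or more of the 8 arrays, and no member passed it through the arrays of 1 group alone. The pancreatectomy group is 4 one-colour Agilent arrays of islet RNA from C57BL/6J mice, aged 8 weeks, after 60% pancreatectomy. The sham group is 4 arrays of islet RNA from mice of the same strain and age after a sham operation. The labels mention no transgene or drug in either group, and whether the arrays of 1 group stand for different mice or islet preparations is not stated. The p-values therefore measure only the spread between arrays, which may be technical.

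Glycolysis splits glucose into pyruvate in the cytosol. In beta cells this flux does more than feed the cell: the ATP made from pyruvate in mitochondria closes potassium channels and triggers insulin secretion, and beta cells are known for low lactate dehydrogenase A and low monocarboxylate transport, so that little pyruvate is turned into lactate. When oxygen is short, prolyl hydroxylases of the Egln family stop marking the alpha subunits of hypoxia-inducible factor (HIF) for destruction, and HIF then binds a short core motif in DNA and raises transcription of glycolytic enzymes, glucose and lactate transporters and genes of pH control and vessel tone.

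The core of the HIF binding motif is ACGTG or GCGTG, and both were searched on both strands in the 250 bases before each annotated transcription start (RefSeq, GRCm38.p6). The table of starts held 29 of the 31 members, with 42 windows in all. Slc2a3 and Ndrg1 are not in it. ACGTG was found in 10 of 13 windows of hypoxia response members (76.9%) and in 12 of 29 windows of enzyme members (41.4%). It was in 5444 of all 32851 windows (16.6%) and in 3362 of the 17122 windows of genes tested on these arrays (19.6%). Windows of a gene can overlap, and the same site of Aldoa was counted in 2 of them. By gene, ACGTG was found in 10 of 12 hypoxia response members and in 8 of 17 enzymes. With GCGTG counted as well, 35 of 42 member windows held a match (83.3%), against 38.6% of all windows and 8553 of the 17122 windows of tested genes. ACGTG is also part of CACGTG, the E-box bound by other factors. CACGTG was in 11.9% of member windows, 6.02% of all windows and 7.49% of windows of tested genes. A match in these letters describes the window and is not a measured binding site. The windows of the 4 members with the highest change after pancreatectomy and of Pfkfb2, the member with the lowest, are printed here 5′ to 3′ on the strand of the gene, with each ACGTG or GCGTG, or its complement CACGT or CACGC, in capitals.
Car9: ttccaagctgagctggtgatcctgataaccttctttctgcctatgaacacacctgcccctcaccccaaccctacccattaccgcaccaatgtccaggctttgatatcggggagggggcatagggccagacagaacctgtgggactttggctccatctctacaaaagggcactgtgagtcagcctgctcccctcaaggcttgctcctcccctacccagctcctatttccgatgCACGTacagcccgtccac
Egln3: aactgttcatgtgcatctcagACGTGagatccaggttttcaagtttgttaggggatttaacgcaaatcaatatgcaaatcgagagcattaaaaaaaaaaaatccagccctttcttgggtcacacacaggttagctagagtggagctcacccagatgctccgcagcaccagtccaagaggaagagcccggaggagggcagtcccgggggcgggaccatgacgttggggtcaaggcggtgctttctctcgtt
Hk2: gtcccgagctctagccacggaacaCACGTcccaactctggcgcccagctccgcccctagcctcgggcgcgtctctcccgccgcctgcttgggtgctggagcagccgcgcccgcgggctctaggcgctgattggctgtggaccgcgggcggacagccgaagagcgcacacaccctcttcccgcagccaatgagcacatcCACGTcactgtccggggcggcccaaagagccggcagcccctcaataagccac
Adm: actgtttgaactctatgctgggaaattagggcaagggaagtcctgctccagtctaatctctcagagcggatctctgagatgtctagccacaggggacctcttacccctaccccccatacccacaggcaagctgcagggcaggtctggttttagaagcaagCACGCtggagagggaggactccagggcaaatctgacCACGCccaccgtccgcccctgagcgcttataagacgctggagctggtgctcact
Pfkfb2: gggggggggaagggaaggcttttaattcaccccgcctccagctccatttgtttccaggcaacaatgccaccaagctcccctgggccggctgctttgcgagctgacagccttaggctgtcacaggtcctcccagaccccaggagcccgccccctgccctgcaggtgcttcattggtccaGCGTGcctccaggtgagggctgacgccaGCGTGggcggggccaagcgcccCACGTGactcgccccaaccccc
These windows lie at chr4:43506776-43507025 on the plus strand for Car9, chr12:54203875-54204124 on the minus strand for Egln3, chr6:82774455-82774704 on the minus strand for Hk2, chr7:110627407-110627656 on the plus strand for Adm and chr1:130715822-130716071 on the minus strand for Pfkfb2, all in GRCm38.p6. In the Car9 window the single ACGTG match begins 18 bases before the start. Hk2 has 2 matches, beginning 226 and 52 bases before the start. The Egln3 match begins 229 bases before it. Adm has no ACGTG in this window and 2 GCGTG matches, 90 and 54 bases before the start. The Pfkfb2 window shown is 1 of 3 for that gene and was picked for its CACGTG. That is counted as overlapping ACGTG matches on both strands, which begin 22 and 21 bases before the start. The window also holds 2 GCGTG matches.

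Markers of other cell types differed between arrays of 1 group. Markers of beta cells were well above background on every array (10 of 10 markers). The log2 of their summed signal ran from 20 to 20.9 on pancreatectomy arrays and from 20.1 to 21.4 on sham arrays. By gene, 9 of the 10 had a negative change (median -0.397), none with an adjusted p under 0.05 in limma. Fibroblast, stellate and pericyte markers stood above the sham mean by 2.67 and 2.02 (log2, mean of 9 genes) on pancreatectomy replicates 1 and 3, against 0.0362 and 0.052 on pancreatectomy replicates 2 and 4. Macrophage markers showed the same order, at 1.71 and 1.35 against -0.405 and -0.0261 (10 genes). Hepatocyte markers were high on pancreatectomy replicates 1 and 4 and on sham replicate 4, at 4.44, 3.58 and 4.32. Of these markers, Ttr and Fga did not follow and were highest on sham replicate 1, at 17.41 and 8.38. Apoa1 was also high on pancreatectomy replicate 3, at 9.71. Gut epithelium and lymphocyte markers were high on pancreatectomy replicate 3, at 2.99 and 3.21. Acinar markers (9 genes) were highest on pancreatectomy replicate 3 and sham replicate 1, at 1.49 and 1.37. They were lowest on sham replicate 3, at -1.87, followed by pancreatectomy replicate 1 at -0.653. Sham replicate 3 was the dimmest array. The 75th percentile of its processed signal was 178 and 48.1% of its probes were well above background, against 59.1% to 71.4% on the others. In bulk RNA, fewer cells of a type and less RNA per cell cannot be told apart.

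**Figure D1:**
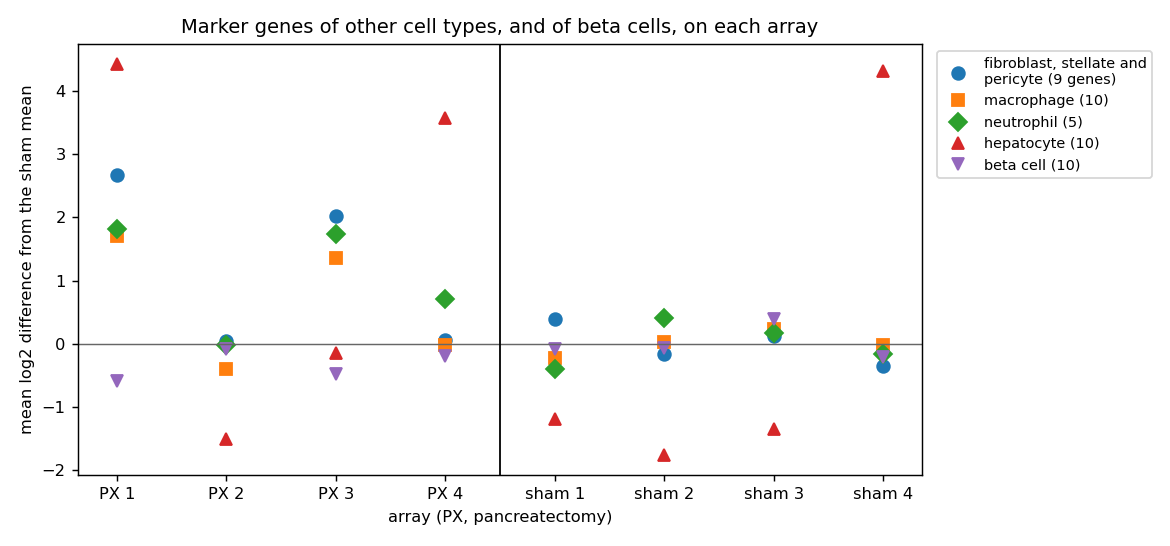
Mean log2 difference from the sham mean (vertical axis) of 5 marker lists on each of the 4 pancreatectomy arrays (PX) and the 4 sham arrays. Fibroblast markers stand at 2.67 and 2.02 on pancreatectomy replicates 1 and 3, and hepatocyte markers at 4.44, 3.58 and 4.32 on pancreatectomy replicates 1 and 4 and sham replicate 4.

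No member changed after pancreatectomy at an adjusted p under 0.05 in limma with Benjamini-Hochberg adjustment over 30864 features. The count was 0 of 17 enzymes and 0 of 14 hypoxia response genes in either direction, where 0.544% of all features were called higher and 0.0842% lower. Cell cycle genes did pass in the same fit: all 6 measured cycling-cell markers rose, by 3.73 to 4.43 on the log2 scale. At an unadjusted p under 0.05 the members numbered 4 enzymes (Aldoc, Pgk1, Eno1 and Pfkfb2) and 2 hypoxia response genes (Ndrg1 and Adm), 6 of 31 in all, where 10.5% of all features were past that mark. The smallest adjusted p from limma was 0.274, for Ndrg1, and 0.275 for Pfkfb2. The median change of the 31 members was -0.10 (log2, pancreatectomy minus sham), beside -0.04 over all features, and their median absolute change was 0.256 beside 0.212. The median SE was 0.193 for the members and 0.22 for all features. Changes follow below with their SE, over 4 arrays in each group.

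**Figure D2:**
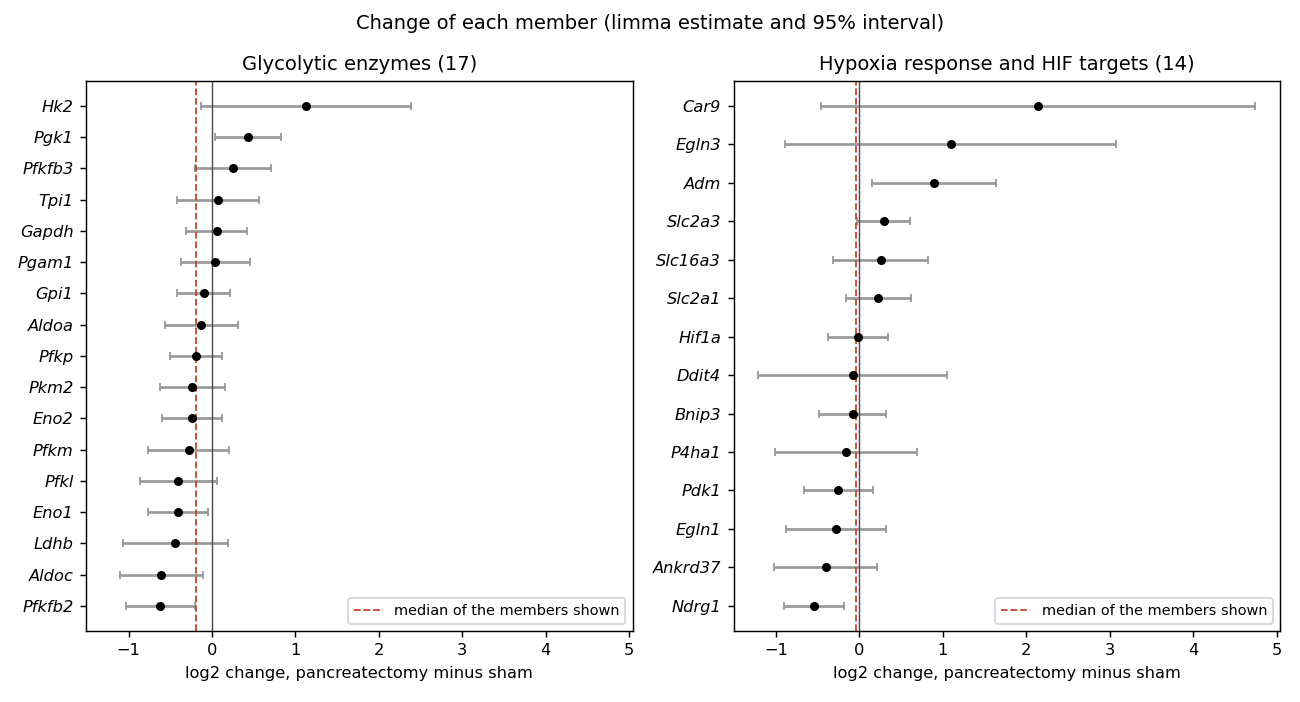
Log2 change, pancreatectomy minus sham, of each of the 17 enzymes (left) and 14 hypoxia response genes (right), as points with the 95% interval from limma. The dashed lines mark the class medians, -0.19 and -0.05, and the intervals of Car9 and Egln3 are the widest.

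Most enzymes had a lower mean after pancreatectomy, none of them past the test. Of 17 enzymes, 6 had a positive and 11 a negative change, with a median of -0.19, where 54.9% of all features were negative. On the single arrays the median difference of the enzymes from the sham mean was -0.28, -0.13, -0.21 and -0.09 on pancreatectomy replicates 1 to 4, against -0.19, -0.03, 0.35 and -0.08 on sham replicates 1 to 4. Sham replicate 3 thus stood above the other 7 arrays, and 11 of the 17 enzymes had their highest value of all there, where 29% of all features did. Among hypoxia response genes it was 4 of 14. That array also had the highest mean of beta-cell markers, 0.386 above the sham mean, while pancreatectomy replicates 1 and 3 had the lowest, at -0.599 and -0.476. Sham replicate 3 had the lowest mean of acinar markers as well, at -1.87. The part of array brightness or cell mixture in the enzyme values was not tested. Without sham replicate 3 the median change of the enzymes was -0.09, and without pancreatectomy replicates 1 and 3 it was -0.08. Sham replicate 3 held the highest enzyme median and pancreatectomy replicates 1 and 3 the lowest, so these choices favoured a weaker change.

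**Figure D3:**
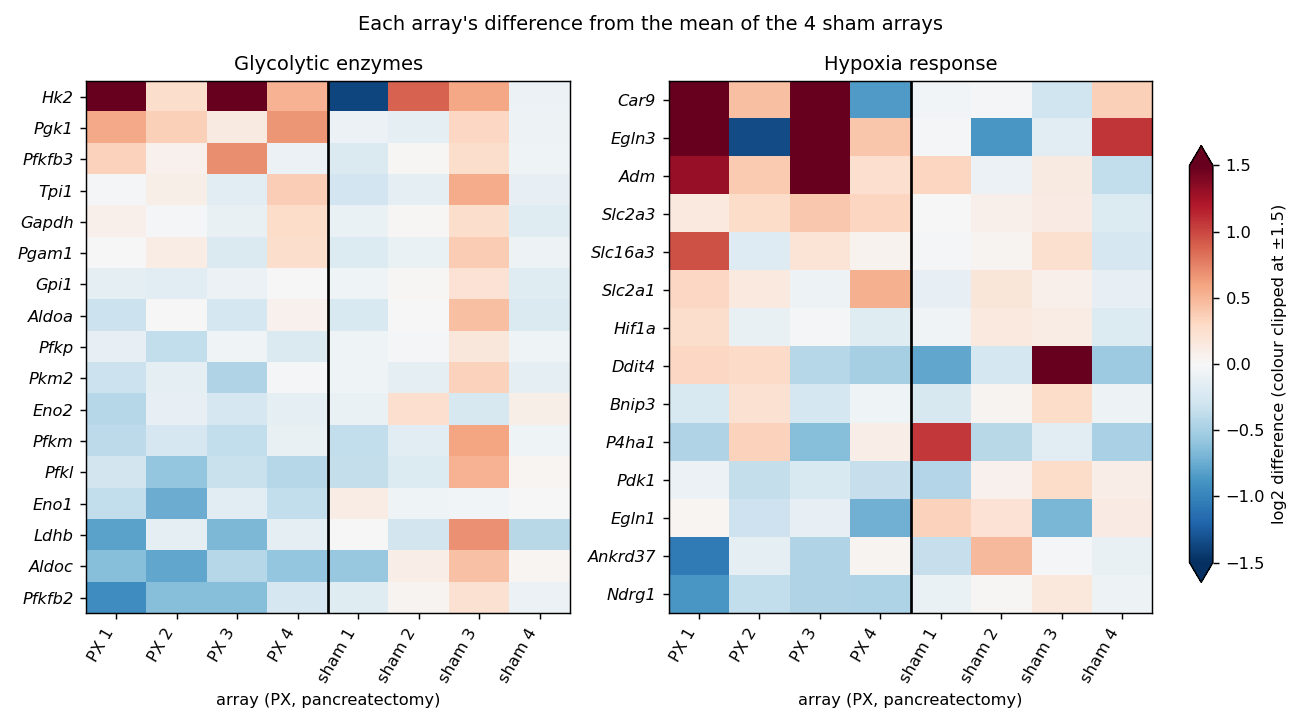
Difference of each member (lines) from the mean of the 4 sham arrays, on each pancreatectomy array (PX 1 to 4) and each sham array, in log2 units with colours clipped at ±1.5. Red on sham 3 runs through most enzymes, and Car9, Egln3, Adm and Hk2 are red on PX 1 and PX 3.

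Hk2, hexokinase 2, which phosphorylates glucose on entry into the cell, had the largest change among the enzymes. Its normalised log2 signal was 5.61, 3.98, 5.53 and 4.24 on pancreatectomy replicates 1 to 4, against 2.34, 4.60, 4.29 and 3.63 on sham replicates 1 to 4. Pancreatectomy replicates 1 and 3 were the highest arrays, while replicates 2 and 4 lay inside the sham range. The change was 1.12 ± 0.56, a 2.18-fold difference, with a 95% interval of -0.14 to 2.38 and an adjusted p of 0.523 in limma. The probe (mm9, chr6:82675056-82675115) was dim and stood well above background on 3 pancreatectomy and 2 sham arrays. Under normexp background correction the change was 0.31, and without pancreatectomy replicates 1 and 3 it was 0.39. That pair held its highest values, so a lower change was bound to follow on leaving it out.

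The next steps are isomerisation and the phosphofructokinase reaction, the committed step. Gpi1, the glucose phosphate isomerase, differed by -0.10 ± 0.14. The phosphofructokinase subunits of liver, muscle and platelet type gave -0.40 ± 0.20 for Pfkl, -0.28 ± 0.21 for Pfkm and -0.19 ± 0.14 for Pfkp. All 3 overlapped between groups. All 3 also had their highest value on sham replicate 3, and without it their changes were -0.23, -0.09 and -0.13. Leaving out the highest sham value was bound to weaken a negative change.

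Pfkfb2 and Pfkfb3 make and break the fructose bisphosphate that activates phosphofructokinase, and neither passed the test. Pfkfb2 had the lowest change of all 31 members. Its signal was 8.86, 9.16, 9.16 and 9.55 on pancreatectomy replicates 1 to 4, against 9.61, 9.84, 10.03 and 9.71 on sham replicates 1 to 4. Every pancreatectomy array lay below every sham array. Over all features, 5.29% were separated in this direction. The change was -0.62 ± 0.18 (0.651-fold, 95% interval -1.03 to -0.21, adjusted p 0.275 in limma). It stayed between -0.74 and -0.45 over every alternative run for it. The probe lies at chr1:132586122-132586181 (mm9). Pfkfb3, itself a HIF target, differed by 0.25 ± 0.20 with its highest values, 9.03 and 9.37, on pancreatectomy replicates 1 and 3. Without those arrays its change was -0.02, and a lower change was bound to follow from leaving out its highest values.

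**Figure D4:**
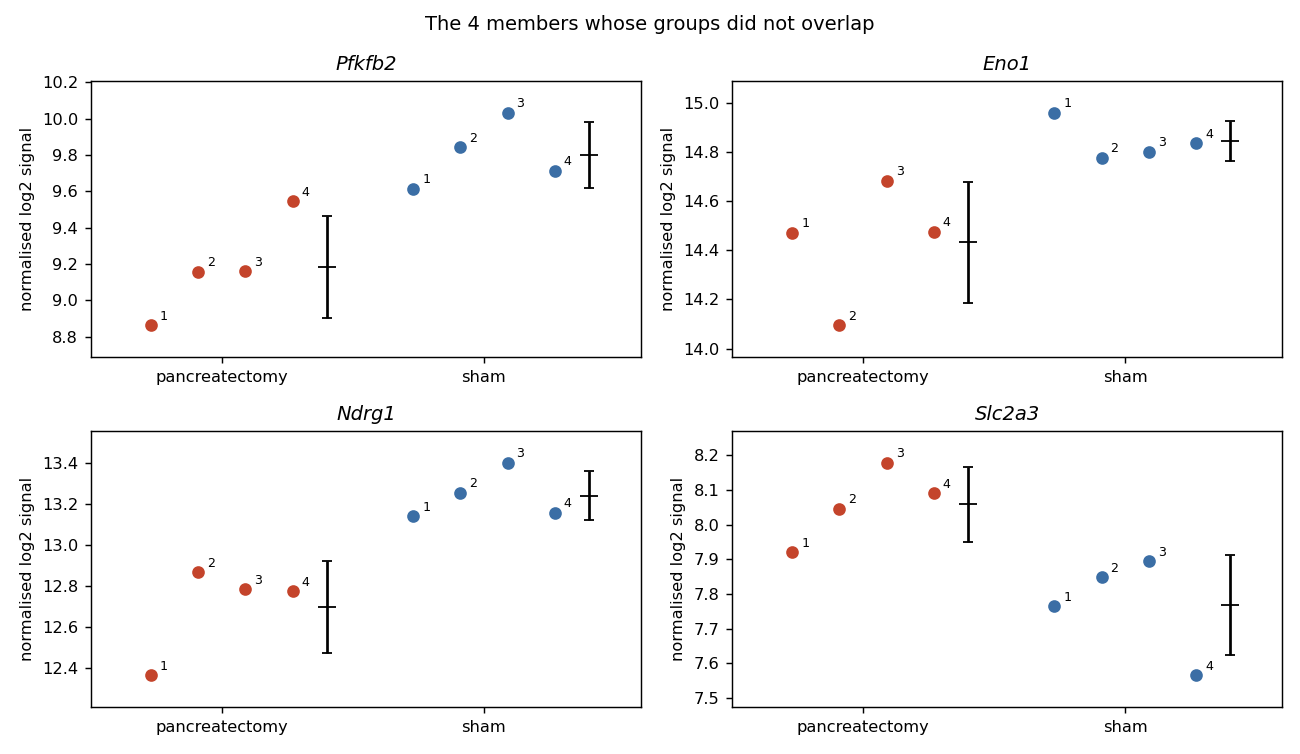
Normalised log2 signal of Pfkfb2, Eno1, Ndrg1 and Slc2a3 on 4 pancreatectomy arrays (red) and 4 sham arrays (blue), numbered by replicate, with the group mean and SD in black. The groups do not overlap in any of the 4 panels, and in Slc2a3 the lowest pancreatectomy value is 7.92 and the highest sham value 7.89.

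The aldolases split the fructose bisphosphate that phosphofructokinase makes, which is a different molecule from its activator. Aldoc, the isozyme known from brain, had a change of -0.61 ± 0.22 (0.657-fold, 95% interval -1.10 to -0.11, adjusted p 0.390 in limma). Pancreatectomy arrays ran from 11.69 to 12.04 and sham arrays from 11.89 to 12.90, so that sham replicate 1 lay inside the pancreatectomy range. The ubiquitous Aldoa differed by -0.13 ± 0.19, with a turned sign in 2 alternatives. Tpi1, which interconverts the resulting triose phosphates, differed by 0.07 ± 0.22.

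For 3 of the following enzymes the probe that stands for the gene is placed elsewhere in the genome. The authors' deposited table places the probe that stands for Gapdh on chromosome 7 (mm9, chr7:59003199-59003257), that of Pgk1 on chromosome 3 (chr3:57906830-57906894) and that of Eno1 on chromosome 2 (chr2:80678866-80678925), while RefSeq has these genes on chromosomes 6, X and 4. The other 28 members have their probe on the chromosome of the gene. Processed copies of these genes are known to be scattered through the mouse genome, and a probe placed at such a copy may read the gene, the copy or both. Gapdh, which oxidises glyceraldehyde phosphate, has 8 kept probes, 5 of them on chromosome 6, and their changes ran from -0.07 to 0.16. Its standing probe gave 0.05 ± 0.16, with a 95% interval of -0.31 to 0.42.

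Pgk1, the phosphoglycerate kinase and the first ATP-making step, was the enzyme with the highest change among those well above background on all arrays. Its values ran from 13.37 to 13.90 on pancreatectomy arrays and from 13.08 to 13.54 on sham arrays. Sham replicate 3, at 13.54, was the only sham array inside the pancreatectomy range. The change was 0.43 ± 0.17 (1.35-fold, adjusted p 0.438 in limma), and 0.54 without sham replicate 3. As that array was the highest of the sham group, a larger change was bound to follow. Pgam1, the phosphoglycerate mutase, differed by 0.04 ± 0.18.

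Eno1, the enolase of most tissues, read 14.47, 14.09, 14.68 and 14.48 on pancreatectomy replicates 1 to 4, against 14.96, 14.78, 14.80 and 14.83 on sham replicates 1 to 4. All pancreatectomy arrays were below all sham arrays. The change was -0.41 ± 0.16 (0.752-fold, adjusted p 0.417 in limma). Eno2, the neuronal and endocrine enolase, differed by -0.24 ± 0.16 on a probe placed at the gene. Pkm2, pyruvate kinase of muscle type, differed by -0.24 ± 0.17. Ldhb, the lactate dehydrogenase subunit that favours the reaction from lactate to pyruvate, differed by -0.44 ± 0.28, and its 2 lowest arrays were pancreatectomy replicates 1 and 3 at 10.35 and 10.48.

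The hypoxia response genes lay on both sides of 0. Of 14, 6 had a positive and 8 a negative change, with a median of -0.05. The transcription factor and its regulators come first. Hif1a, the HIF alpha subunit controlled mainly at the protein level, differed by -0.01 ± 0.16, with a 95% interval of -0.37 to 0.35. Egln1, the main oxygen-sensing prolyl hydroxylase, differed by -0.28 ± 0.26. No protein was measured, so HIF activity itself is not in these data.

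Egln3, the prolyl hydroxylase that is itself induced by HIF, spread more widely than the group difference. Its signal was 6.08, 1.89, 5.69 and 3.66 on pancreatectomy replicates 1 to 4, against 3.22, 2.36, 3.06 and 4.31 on sham replicates 1 to 4. Replicates 1 and 3 of the pancreatectomy group were the highest arrays and replicate 2 was the lowest of all 8. The change was 1.09 ± 0.88 (2.13-fold, 95% interval -0.90 to 3.08, adjusted p 0.692 in limma). The probe (mm9, chr12:55280953-55281012) was well above background on 3 pancreatectomy and 2 sham arrays. A second Egln3 probe gave 0.70.

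Car9, a membrane carbonic anhydrase that exports acid and is a standard marker of hypoxic cells, had the largest change of the 31. It read 8.77, 4.67, 8.62 and 3.37 on pancreatectomy replicates 1 to 4, against 4.18, 4.2, 3.92 and 4.57 on sham replicates 1 to 4. Pancreatectomy replicates 1 and 3 stood above every sham array by more than 4 log2 units, replicate 2 was just above the sham range and replicate 4 was below it and not well above background. The change of 2.14 ± 1.15 was 4.41-fold, with a 95% interval of -0.46 to 4.74 and an adjusted p of 0.560 in limma. The probe lies at chr4:43526518-43526577 (mm9) and was well above background on 3 pancreatectomy and 3 sham arrays. Including Hk2 and Egln3, 3 of 31 members had a change of at least 2-fold, where 3.59% of all features did.

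Adm, the vasodilator peptide adrenomedullin, followed the same arrays. Its signal was 6.31, 5.39, 6.63 and 5.25 on pancreatectomy replicates 1 to 4, against 5.32, 4.92, 5.13 and 4.63 on sham replicates 1 to 4. Replicates 1 and 3 of the pancreatectomy group were again highest, and replicate 4 lay inside the sham range. The change was 0.90 ± 0.33 (1.86-fold, 95% interval 0.15 to 1.64, adjusted p 0.398 in limma). Its probe (mm9, chr7:117773088-117773147) was well above background on 4 pancreatectomy and 3 sham arrays.

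**Figure D5:**
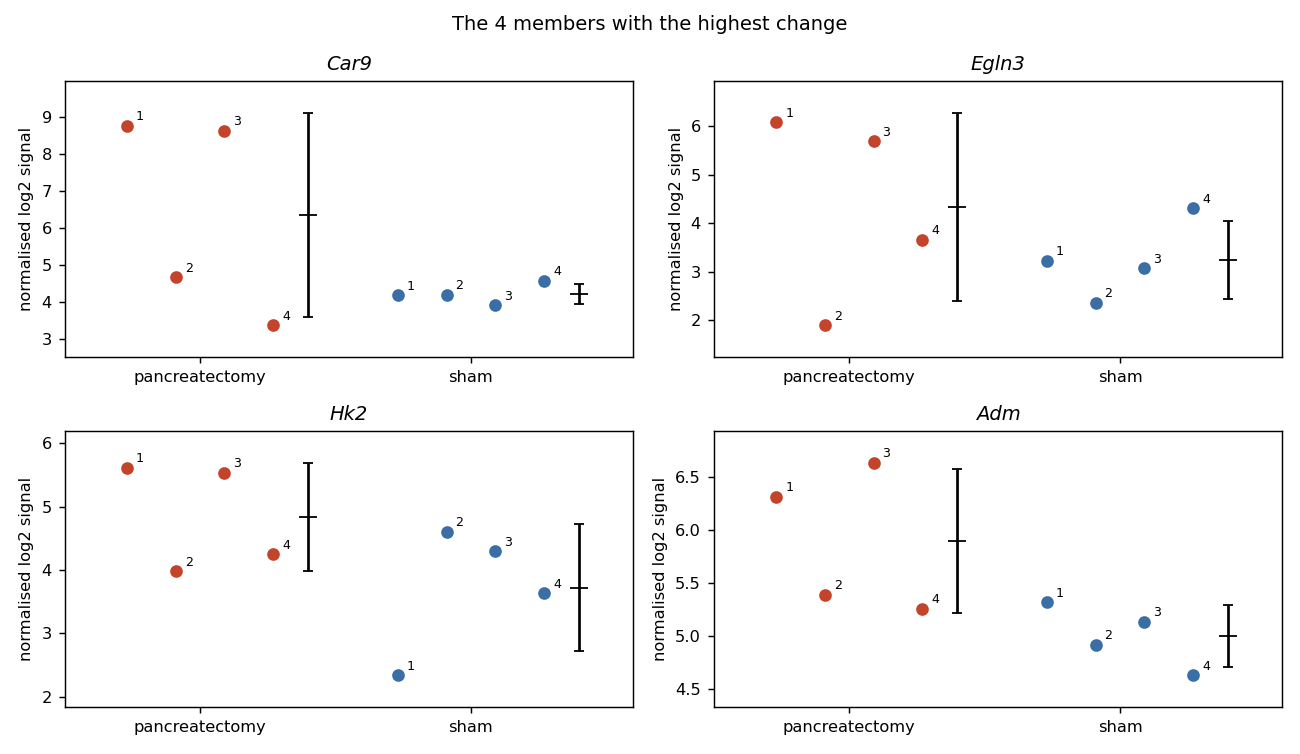
Normalised log2 signal of Car9, Egln3, Hk2 and Adm on 4 pancreatectomy arrays (red) and 4 sham arrays (blue), numbered by replicate, with the group mean and SD in black. In each panel pancreatectomy replicates 1 and 3 are the highest of the 8 arrays, in Car9 at 8.77 and 8.62.

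In 5 members, Hk2, Pfkfb3, Egln3, Car9 and Adm, pancreatectomy replicates 1 and 3 both lay above the other 6 arrays, as they did in 4.99% of all features. In 6 members, Pfkm, Aldoa, Eno2, Pkm2, Ldhb and Ankrd37, the same pair of arrays lay below the other 6, as they did in 16.5% of all features. These are the arrays with the high fibroblast and macrophage markers given above. The log2 of the summed fibroblast, stellate and pericyte signal was 16.9 and 15.7 on them, 13.4 and 13.3 on pancreatectomy replicates 2 and 4, and 12.9 to 13.7 on sham arrays. All 9 markers were detected: 8 were well above background on all 8 arrays and Pdgfra on 7. All 10 macrophage markers were well above background on all 8 arrays, and the log2 of their summed signal ran from 14.4 to 15 on pancreatectomy arrays and from 14.5 to 15.2 on sham arrays. Neutrophil markers were also highest on pancreatectomy replicates 1 and 3, at 1.81 and 1.74 (mean of 5 genes). So were duct markers, at 1.31 and 0.865 (mean of 6 genes). Not every marker followed, that is, had both arrays of the pair above the other 6. The exceptions were Elane, Mpo and Retnlg of the neutrophil markers and Cftr and Krt7 of the duct markers. C1qa and Itgam of the macrophage markers and Rgs5 of the fibroblast, stellate and pericyte markers did not follow either. Itgam was lowest on this pair, at 13.035 and 13.212. The log2 of the summed neutrophil signal was 13 and 12.6 on the pair, within the sham range of 11.9 to 14.1. With pancreatectomy replicates 1 and 3 left out, Car9 gave -0.20, Egln3 -0.46 and Adm 0.32. That pair held the highest values of each, so a lower change was bound to follow. The part of the other cells in these values was not tested.

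Among the transporters, Slc2a3, a high-affinity glucose transporter, was the member whose groups were apart in the upward direction. Its signal was 7.92, 8.05, 8.18 and 8.09 on pancreatectomy replicates 1 to 4, against 7.77, 7.85, 7.89 and 7.57 on sham replicates 1 to 4. All pancreatectomy arrays lay above all sham arrays, as in 2.99% of all features. The difference was small, 0.29 ± 0.14 (1.22-fold, 95% interval -0.03 to 0.61, adjusted p 0.513 in limma). Slc2a1, the basal glucose transporter, differed by 0.23 ± 0.17, and by -0.01 without the 3 arrays with hepatocyte markers. Those arrays held its highest values, 9.59 and 9.38 on pancreatectomy replicates 4 and 1, so a lower change was bound to follow. Slc16a3, the lactate exporter of glycolytic cells, differed by 0.26 ± 0.25, and its highest array was pancreatectomy replicate 1 at 9.81. Its sign turned in 3 alternatives, among them the change of -0.08 without the 3 arrays with hepatocyte markers. Those arrays held its highest value and its lowest, 8.60 on sham replicate 4, so a lower change was bound to follow.

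Ndrg1, a stress-induced gene that HIF raises in many cells, went the other way. It read 12.37, 12.87, 12.79 and 12.78 on pancreatectomy replicates 1 to 4, against 13.14, 13.26, 13.40 and 13.16 on sham replicates 1 to 4. Every pancreatectomy array was lower than every sham array. The change was -0.54 ± 0.16 (0.687-fold, 95% interval -0.90 to -0.18), and its adjusted p of 0.274 in limma was the smallest among the members. It ran from -0.66 to -0.40 over the alternatives, with 0.0633 as its smallest adjusted p, under array weights. The probe lies at chr15:66761057-66761116 (mm9).

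The remaining hypoxia response genes overlapped between groups on the probe that stands for them. Pdk1, the kinase that shuts pyruvate out of the mitochondrial dehydrogenase, gave -0.25 ± 0.18. Bnip3, a mitophagy receptor, gave -0.08 ± 0.17 on its brightest probe, and -0.32 and -0.40 on its other kept probes, of which the probe at -0.40 had every pancreatectomy array below every sham array. P4ha1, a collagen prolyl hydroxylase subunit, gave -0.16 ± 0.37, and Ankrd37, an ankyrin-repeat HIF target, -0.40 ± 0.27. Ddit4, a stress-induced inhibitor of mTOR signalling, gave -0.08 ± 0.50, and 1 sham array set that spread. Sham replicate 3 read 13.93, against 11.55 to 12.07 on the other sham arrays and 11.83 to 12.65 on pancreatectomy arrays.

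The wider pathway was read through 7 lists of related genes, and no gene of any list passed the test (limma, adjusted p). Of 19 other glycolytic enzymes and isozymes, 13 were positive and 6 negative (median 0.12). The lowest was Tigar, which breaks down the fructose bisphosphate that activates phosphofructokinase, at -0.52 ± 0.27. Of 8 gluconeogenic genes 4 were positive and 4 negative (median -0.07). Pck1, the liver's key gluconeogenic enzyme, was highest at 3.05 ± 1.71. It read 9.96, 3.00, 7.53 and 8.50 on pancreatectomy replicates 1 to 4, against 3.06, 2.06, 3.31 and 8.35 on sham replicates 1 to 4. The 3 arrays with hepatocyte markers and pancreatectomy replicate 3, with gut markers, were its high arrays. Leaving out these 4, its highest, left 1 pancreatectomy array against 3 sham arrays, and a smaller change was bound to follow. It was 0.19. The part of other tissue in the Pck1 values was not tested. Its probe was well above background on 3 pancreatectomy and 2 sham arrays. Pcx, the mitochondrial pyruvate carboxylase by which beta cells refill the citric acid cycle, was lowest at -0.49 ± 0.14.

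Of 12 genes of pyruvate entry into mitochondria 3 were positive and 9 negative (median -0.11), from 0.14 ± 0.16 for Dld, a dehydrogenase subunit, to -0.42 ± 0.24 for Pdk2, a dehydrogenase kinase. Of 10 other glucose and lactate transporters and their partners 2 were positive and 8 negative (median -0.20). Slc2a6 was highest at 0.76 ± 0.31, and Slc2a2, through which mouse beta cells take up glucose, lowest at -0.64 ± 0.22. Of 7 pentose phosphate genes 3 were positive (median -0.04), from Pgd at 0.28 ± 0.15 to Rpia at -0.51 ± 0.26.

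Of 14 genes of the HIF machinery 3 were positive and 11 negative (median -0.22). Hif3a, an alpha subunit with inhibitory forms, was highest at 1.11 ± 0.35, and Arnt2, a dimer partner of HIF, lowest at -0.88 ± 0.23 with every pancreatectomy array below every sham array. Of 34 other HIF targets 18 were positive and 16 negative (median 0.03). Angptl4, a lipoprotein lipase inhibitor, was highest at 1.74 ± 0.94 and read 11.37, 7.52, 11.35 and 7.50 on pancreatectomy replicates 1 to 4, against 7.06 to 7.97 on sham arrays. Its high arrays were those on which Car9 was high. Vegfa, the vessel growth factor that beta cells secrete, was lowest at -0.61 ± 0.17, with 11.83 to 12.30 on pancreatectomy arrays and 12.55 to 12.99 on sham arrays, which did not overlap.

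The authors' deposited table, which gives 1 average per group, had the same sign for all 31 members. Its differences lay within 0.006 log2 units of those above. It averages the same arrays after the same kind of scaling, so close values were bound to follow and only the arithmetic is checked.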

How the data were processed

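Transcripts were measured in isolated islets on 8 one-colour (Cy3) arrays on 1 slide, 4 for each of 2 samples. Per the file headers, spot intensity was read with Feature Extraction 10.7.3.1 and deposited as a background-subtracted, detrended processed signal with no scaling between arrays. The submitters' processing notes name version 9.1. The authors' deposited table holds 1 log2 value per group, which per the file headers came from GeneSpring GX 12.5 after scaling to the 75th percentile. It served for gene symbols, probe positions (mm9) and a check of differences.

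From the scanner files, control spots and outlier spots were left out, and no spot was saturated. The log2 processed signal was shifted by each array's 75th percentile and spots of a probe were averaged. Probes well above background on at least 4 arrays were kept, with at least 3 values in each group, which left 37491 probes. A gene stands by its brightest kept probe. Symbols were updated through Entrez IDs with a GRCm38.p6 table, which changed 3525 symbols. Of the 30864 features, 18641 have a symbol. Groups were compared with limma 3.58.1 (lmFit and eBayes) in R 4.3.3, with Benjamini-Hochberg adjustment over all features at 0.05. The fit was tested on simulated data. Intervals are at 95%. Precision is limited by the small number of arrays. Marker values are mean differences from the sham mean.

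On the slide, pancreatectomy arrays sit in columns 3 and 4 and sham arrays in columns 1 and 2. Position by column and group cannot be told apart. Both slide rows hold both groups. Alternatives covered scaling, background, filter, probe choice, slide row, spread model and arrays left out. The files have no mean signal column, so normexp used the median signal with an offset of 50. Every member is named. All 8 values are given for members with a change of at least 1 on the log2 scale, and for 5 more (Adm, Pfkfb2, Eno1, Ndrg1, Slc2a3) chosen after their values were seen. Of each pathway list the genes with the highest and lowest change are named, except 1 that is not reported here. The members and the lists were chosen with earlier results of these data known. Every column of per-sample values was matched to a sample. Protein sequences and exon positions on mm9 were not used here.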

Additional observations from a re-analysis of the deposited data

Results flagged for a closer look

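Sham replicate 3 stood far from the other 3 sham arrays in 3 enzymes by Dixon's criterion, which marks a value whose gap to its neighbour takes up most of the group's range. Pfkp read 9.06 there, against 8.83 to 8.86 on the others. Pgk1 read 13.5, against 13.1 to 13.2. Pkm2 read 14, against 13.5 to 13.6. Of 62 sets of 4 values 3 were marked, and chance marks about 1 in 20. The same array was the dimmest, and the enzymes' median was 0.46 above the mean of the other 3 sham arrays, beside 0.16 for the hypoxia response genes and 0.01 for all features. The part of array brightness in these values was not tested.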

How the results depend on the processing

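No member was called higher or lower in any of 23 alternative settings (limma, adjusted p), nor with every kept probe tested on its own. The smallest adjusted p in them was 0.0633. The stricter filter dropped Hk2, Egln3, Car9 and Adm. At unadjusted p under 0.05 the members numbered from 0 (under no scaling, among others) to 12 (array weights). Of 31 changes 18 kept their sign in every setting and 13 did not. Among those 13, Car9 reached -0.20, Egln3 -0.99 and Ddit4 from -0.99 to 0.83.

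The median change of the enzymes was negative in every setting. That of the hypoxia response genes, -0.05, became -0.17 under median scaling, which placed the median of all features at -0.16. It became 0.14 within slide row 1 and 0.0808 under array weights. With single arrays left out it ran from -0.0947 to 0.138, the highest without sham replicate 3, with 0.08 without sham replicate 1. The cause was not tested.

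Calls over all features ranged from none, as within a slide row, to 407 higher and 362 lower under array weights, where Pcx and Arnt2 were called lower. The labels pair no array of one group with an array of the other. With slide row as a block, 111 features were called higher and 11 lower, none of them a member. Few arrays and probes near background (Hk2, Egln3, Car9) limit the precision.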
